A study of Mus musculus with 12 samples.

Results

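The accessible chromatin of 33 genes for glutamate receptors and their postsynaptic scaffold was compared between SgshKO and wild-type (WT) mouse forebrain by ATAC-seq, an assay in which a transposase cuts and tags open DNA. The genes were taken by name as 3 AMPA receptor subunits, 5 kainate receptor subunits, 7 NMDA receptor subunits, 7 metabotropic or delta receptors, 9 scaffold proteins and 2 CaMKII kinase subunits. Every peak whose nearest gene start belonged to one of them was kept, which gave 914 of 281974 peaks over the tables of 3 sorted populations. A peak within 1000 bp of the start (TSS) is called a start-site peak and the others are called distal. NeuN+ nuclei held 653 of these peaks, of which 76 were start-site peaks of 32 genes and 577 were distal peaks of 33 genes. Olig2+ nuclei held 168, with 39 start-site peaks of 24 genes and 129 distal peaks of 24 genes. Microglia held 93, with 20 start-site peaks of 12 genes and 73 distal peaks of 18 genes.

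The mice were C57BL/6 and 4 months old, and each population was profiled in 2 WT and 2 SgshKO libraries. Sgsh encodes sulfamidase, a lysosomal enzyme that breaks down heparan sulfate. The labels give the genotype as SgshKO without the allele, and give no sex, batch, animal or pooling. Microglia were sorted live as CD11b+, CX3CR1+ cells with low CD45, while the nuclei were lightly fixed with formaldehyde and sorted as NeuN+ or Olig2+, in both cases negative for PU.1 and for the other marker. Nothing in the labels says that the 2 libraries of a group came from separate mice, so p-values measure the spread between these libraries, which may be technical.

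Glutamate is the main excitatory transmitter of the forebrain. AMPA, kainate and NMDA receptors are ion channels assembled from several subunits, and metabotropic receptors signal through G proteins. Below the postsynaptic membrane, the membrane-associated guanylate kinases (Dlg genes) hold receptors in place, Shank proteins form a deeper layer, Homer proteins tie Shank to metabotropic receptors, and CaMKII responds to the calcium that enters through NMDA receptors. Oligodendrocyte precursors also carry AMPA and kainate receptors, and microglia express few of these genes.

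The promoters of 5 genes stand for the patterns described below: those of Grin1, Homer1 and Grm7, where the start-site signal in NeuN+ nuclei was lower in SgshKO, that of Homer3, where the signal in microglia was higher, and that of Grik4, where the change had opposite signs in the nuclei sorts. The 250 bases before the RefSeq start (build GRCm38.p6, the mm10 assembly) are printed 5′ to 3′ along the gene. Capitals mark matches to 4 motifs searched on both strands, which were GGGCGG (GC box), CACGTG (E-box core), TGACGT (a partial cAMP response element) and the NRF1 motif.
Grin1 (chr2:25319188-25319437, minus strand): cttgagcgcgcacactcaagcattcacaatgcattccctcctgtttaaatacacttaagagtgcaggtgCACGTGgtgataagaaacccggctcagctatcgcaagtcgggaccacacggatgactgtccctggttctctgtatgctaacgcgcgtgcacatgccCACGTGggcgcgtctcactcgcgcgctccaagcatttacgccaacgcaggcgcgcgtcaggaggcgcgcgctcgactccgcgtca
Homer1 (chr13:93303507-93303756, plus strand): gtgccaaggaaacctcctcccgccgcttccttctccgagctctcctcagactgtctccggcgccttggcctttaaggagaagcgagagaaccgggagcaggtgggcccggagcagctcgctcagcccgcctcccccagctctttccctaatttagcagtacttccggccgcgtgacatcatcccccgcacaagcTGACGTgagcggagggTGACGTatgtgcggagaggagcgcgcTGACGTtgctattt
Homer3 (chr8:70282749-70282998, plus strand): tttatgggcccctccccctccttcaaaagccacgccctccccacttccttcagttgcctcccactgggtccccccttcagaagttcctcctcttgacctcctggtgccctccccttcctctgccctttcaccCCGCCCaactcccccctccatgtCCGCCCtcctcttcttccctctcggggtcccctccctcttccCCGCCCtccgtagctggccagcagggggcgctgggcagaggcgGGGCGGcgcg
Grm7 (chr6:110645348-110645597, plus strand): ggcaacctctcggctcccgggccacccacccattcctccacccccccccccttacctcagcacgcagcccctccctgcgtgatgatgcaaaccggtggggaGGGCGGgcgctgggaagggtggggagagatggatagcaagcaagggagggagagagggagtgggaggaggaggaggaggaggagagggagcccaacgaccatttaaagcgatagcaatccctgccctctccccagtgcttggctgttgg
Grik4 (chr9:42944372-42944621, minus strand): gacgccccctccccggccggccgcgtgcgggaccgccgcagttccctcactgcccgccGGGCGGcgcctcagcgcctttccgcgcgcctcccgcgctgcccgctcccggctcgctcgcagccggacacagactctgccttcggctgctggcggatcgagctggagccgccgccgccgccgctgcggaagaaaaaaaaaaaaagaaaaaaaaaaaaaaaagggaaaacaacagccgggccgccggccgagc
The Grin1 stretch held 2 E-box cores, the Homer1 stretch 3 partial elements, the Homer3 stretch 4 GC boxes, and the Grm7 and Grik4 stretches 1 GC box each. RefSeq promoters were at hand for 22 of the 33 genes, with 34 entries of 300 bases that run from 250 before to 50 after a start. Of these, 17 (50%) held a GC box against 35.7% of 32851 mouse promoters of the same length. The E-box core was in 3 (8.82% against 7.15%), the partial element in 1 (2.94% against 7.51%) and the NRF1 motif in 2 (5.88% against 4.6%). CACGTG is its own reverse complement, and a match is a string of letters, not a bound site.

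Libraries held between 10771659 and 19555924 tags, and signal is given as tags per 10000000 tags of the library. Peaks held 26.7% and 25.9% of the tags in NeuN+ WT against 21.5% and 21.2% in NeuN+ SgshKO, 30.9% to 31.8% in the 4 Olig2+ libraries, and 48.7% to 67.4% in microglia. NeuN+ nuclei had a start-site peak at 6 of 6 neuron and 5 of 5 excitatory neuron markers, Olig2+ nuclei at 8 of 8 oligodendrocyte and 4 of 4 precursor markers, and microglia at 6 of 6 microglial markers. Markers of other cell types had peaks too, such as 3 of 8 oligodendrocyte markers in NeuN+ and 4 of 6 neuron markers in Olig2+ nuclei. In microglia they were 1 of 6 neuron, 3 of 5 excitatory and 2 of 5 inhibitory neuron markers. Further ones there were 4 of 8 oligodendrocyte, 2 of 4 precursor, 1 of 5 astrocyte and 3 of 5 endothelial markers. Fewer cells of a type and less signal per cell cannot be told apart in these sorted pools.

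In NeuN+ nuclei, 45 of the 76 start-site peaks (59.2%) were lower in SgshKO at an adjusted p under 0.05 (limma, Benjamini-Hochberg over all 107627 peaks of the table), and 0 were higher. Among all 23397 start-site peaks of these nuclei 44.9% were lower and 1.74% higher, so much of this fall was shared with other genes. The median log2 change, SgshKO minus WT, was -0.74 for the 76 peaks and -0.53 for all start-site peaks. Summed over the 76 peaks, the signal was 3054 and 2940 normalized tags in WT and 1726 and 1669 in SgshKO, a ratio of 0.566. The start-site signal of the neuron markers moved by a like ratio, 0.568, and that of the excitatory and inhibitory markers by 0.518 and 0.707. The few start-site peaks of other cell types' markers in these libraries (oligodendrocyte, precursor, astrocyte, microglia and endothelial) had ratios from 0.597 to 0.664. The part of these shifts in the result was not tested. At an unadjusted p under 0.05, 0 of the 76 were higher and 55 lower, against 13675 of all 23397 start-site peaks in either direction. The count moved with the scaling. It was 32 lower with edgeR, 6 with DESeq2, 20 to 29 when libraries were scaled on their peaks, and 11 lower and 2 higher when the median start-site peak was set to no change, a scaling chosen after seeing the data. The 44.9% above belongs to the main scaling, and the shares of all start-site peaks under these alternatives are not given here. With either SgshKO library left out limma called no peak in the whole NeuN+ table.

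**Figure D1:**
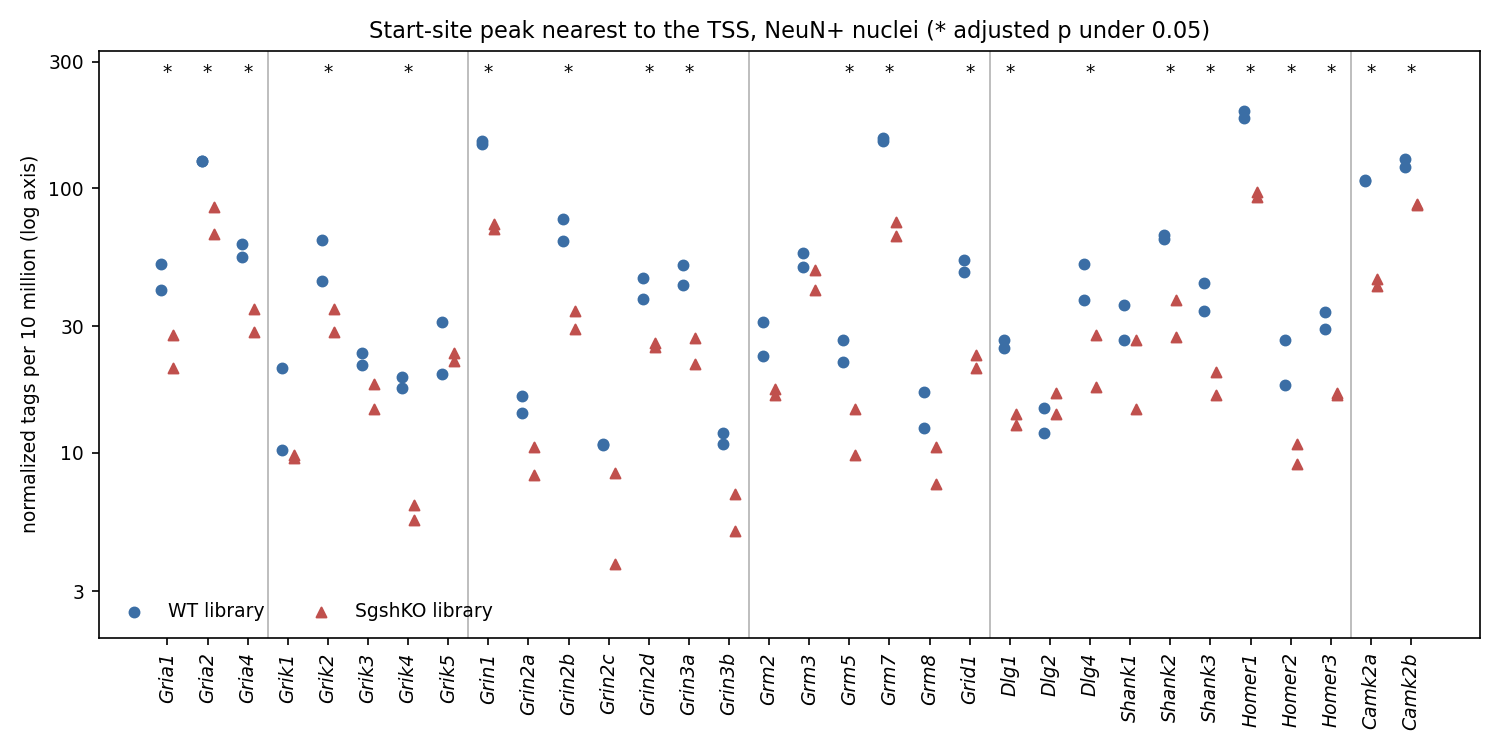
Normalized tags (tags per 10000000, log axis) in the start-site peak nearest to the TSS of each gene in NeuN+ nuclei, with 1 point per library, WT as circles and SgshKO as triangles, and vertical lines between gene families. Grin1, Grm7, Homer1 and Camk2a show both SgshKO libraries well below both WT libraries, while the peaks without an asterisk, Dlg2 and Grm3 among them, do not pass the test.

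The AMPA receptor genes carry most fast excitatory transmission, and 5 of their 5 start-site peaks were lower, against 44.9% of all start-site peaks. At Gria2, whose subunit sets the calcium permeability of the receptor, the peak 22 bp before the TSS (chr3:80802745-80802970) held 126.3 and 126.5 normalized tags in WT and 67.0 and 85.1 in SgshKO. The groups did not overlap, and the log2 change was -0.74 (SE 0.13, adjusted p = 0.00062). Gria1, whose subunit is delivered to synapses during potentiation, went from 51.5 and 41.2 to 27.9 and 20.9 (log2 change -0.90). Gria4, a subunit of interneurons among other cells, went from 54.9 and 61.6 to 34.9 and 28.6 (-0.86). The 5 peaks came from 3 genes. The nearest peak of each gene lost its call with quantile normalization, with DESeq2 and with start-site peaks centred.

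Among NMDA receptor genes 6 of 13 start-site peaks (46.2%) were lower, a share near the 44.9% of all start-site peaks. Grin1 encodes the subunit that every NMDA receptor needs, and its peak at -26 bp (chr2:25319110-25319316) covered 129 of the 250 bases printed above. It held 150.1 and 146.8 tags in WT and 69.8 and 73.0 in SgshKO, with means of 148 ± 2.32 and 71.4 ± 2.27 (SD, n = 2). The log2 change was -1.05 (SE 0.12, adjusted p = 8.64e-06). Each SgshKO library was thus well under each WT library. Grin2b, the subunit that dominates before birth and stays in the adult forebrain, fell from 62.9 and 76.2 to 29.3 and 34.3 (-1.10, adjusted p = 0.0002). Grin3a and Grin2d also fell, by 0.92 and 0.68 on the log2 scale. Grin2a, the adult partner of Grin1, did not pass the test at its nearest peak, with 14.2 and 16.4 tags in WT and 10.5 and 8.25 in SgshKO (-0.66, adjusted p = 0.0904), nor did Grin2c (-0.81, adjusted p = 0.0953) or Grin3b (-0.82, adjusted p = 0.0635).

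Kainate receptor genes had 7 of 12 start-site peaks lower (58.3%), against 44.9% of all start-site peaks. Grik4, which encodes a high-affinity subunit that needs a partner, had 19.3 and 17.5 tags at -158 bp in WT and 5.58 and 6.35 in SgshKO, or 18.4 ± 1.24 against 5.96 ± 0.544 (SD, n = 2). The log2 change of -1.48 (SE 0.30, adjusted p = 0.0014) was the largest decrease among the peaks nearest to a TSS. Grik2 fell from 63.4 and 44.6 to 28.6 and 34.9 (-0.73, adjusted p = 0.0104). Grik5 had overlapping groups at its nearest peak, with 31.1 and 19.8 in WT and 23.7 and 22.2 in SgshKO (-0.11, adjusted p = 0.75), and the sign of that small change turned with the scaling. Grik1 and Grik3 did not pass the test at the nearest peak (-0.56 and -0.45).

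The metabotropic and delta receptor genes had 7 of 12 start-site peaks lower (58.3%), against 44.9% of all start-site peaks. Grm7 encodes a presynaptic receptor that damps glutamate release, and its peak at -58 bp (chr6:110645344-110645565) held 154.1 and 150.2 tags in WT and 65.6 and 74.3 in SgshKO. Its log2 change was -1.11 (SE 0.12, adjusted p = 6.09e-06). Grid1, a delta receptor that binds synaptic organizers, fell from 48.1 and 53.6 to 20.9 and 23.5 (-1.16, adjusted p = 0.000302). Grm5, a postsynaptic receptor coupled to Homer, fell from 26.6 and 22.03 to 9.77 and 14.6 (-0.96, adjusted p = 0.0118). Grm3, a receptor of neurons and glia, held 50.4 and 57.0 in WT and 48.9 and 41.3 in SgshKO (-0.25, adjusted p = 0.263), with groups that came close to touching. Grm2 (-0.63, adjusted p = 0.0504) and Grm8 (-0.64, adjusted p = 0.111) did not pass the test at the nearest peak either. Grm4 had no start-site peak in these nuclei.

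Scaffold genes had 14 of 24 start-site peaks lower (58.3%), against 44.9% of all start-site peaks. Homer1 encodes the adaptor between metabotropic receptors and Shank and also a short form induced by activity. Its peak at -90 bp (chr13:93303506-93303829), which covered all 250 bases printed above with their 3 partial elements, held 183.5 and 195.4 tags in WT and 92.8 and 96.5 in SgshKO (189 ± 8.39 against 94.7 ± 2.60, SD, n = 2; log2 change -0.99, SE 0.11, adjusted p = 5.23e-06). A second Homer1 peak at +255 bp fell from 167.1 and 144.6 to 73.3 and 61.6 (-1.20, adjusted p = 5.6e-06). Shank2 fell from 64.0 and 66.6 to 37.7 and 27.3 (-1.003), Shank3, the gene of Phelan-McDermid syndrome, from 43.6 and 34.4 to 20.2 and 16.5 (-1.04), and Dlg4, which encodes PSD-95, from 51.5 and 37.8 to 27.9 and 17.8 (-0.95). Homer2, Homer3 and Dlg1 fell by 1.07, 0.89 and 0.90 on the log2 scale. Dlg2, which encodes PSD-93, was the one gene whose nearest peak had a positive change, 14.7 and 11.9 tags in WT against 16.8 and 14.0 in SgshKO (0.20, adjusted p = 0.598), with overlapping groups. This peak (chr7:92234745-92234980) lay at the most downstream RefSeq promoter entry of Dlg2. The other Dlg2 start-site peak changed by -0.67 and did not pass the test. The groups of Shank1 overlapped too (-0.62, adjusted p = 0.0788).

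The CaMKII genes had 6 of 10 start-site peaks lower (60%), against 44.9% of all start-site peaks. Camk2a, the alpha subunit of excitatory forebrain neurons, held 107.1 and 106.2 tags at -58 bp in WT and 45.4 and 42.5 in SgshKO (-1.26, SE 0.14, adjusted p = 7.91e-06). Camk2b, the actin-binding beta subunit, held 120.1 and 128.8 against 87.2 and 86.3 (-0.51, adjusted p = 0.00389), a smaller change whose sign turned under quantile normalization (0.04). Grin1, Grin2b, Grm7, Homer1 and Camk2a kept their call under every scaling and tool run, and lost it only where an SgshKO library was left out.

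Other genes of the synapse were read from lists that hold none of the 33 genes. Of 83 start-site peaks of 37 postsynaptic partner genes (neuroligins, AMPA receptor auxiliary subunits, Dlgap and others) 32 were lower and 0 higher by limma, with a median of -0.50, which lies near the background. Of 24 start-site peaks of 11 genes for glutamate transport and metabolism 16 (66.7%) were lower and 0 higher, with a median of -0.81. Over all start-site peaks 44.9% were lower, with a median of -0.53.

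Distal peaks of the receptor and scaffold genes in NeuN+ nuclei moved in both directions, and the direction differed by gene. Of the 577 distal peaks 73 were higher and 92 lower (12.7% and 15.9%), against 12.6% higher and 12.6% lower among all 84230 distal peaks. The median change was -0.29 against -0.11 for all. The split depended on the scaling: it was 109 higher and 36 lower on in-peak scaling, 100 and 53 on median-of-ratios scaling, 63 and 35 after quantile normalization, 102 and 55 with edgeR, 25 and 3 with DESeq2, and 158 and 12 with start-site peaks centred. The shares of all distal peaks under these alternatives are not given here. In-peak scaling raised the median of all distal peaks from -0.11 to 0.16 and that of all start-site peaks from -0.53 to -0.25. With either WT library left out more calls were higher than lower, and without either SgshKO library limma called no peak.

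**Figure D2:**
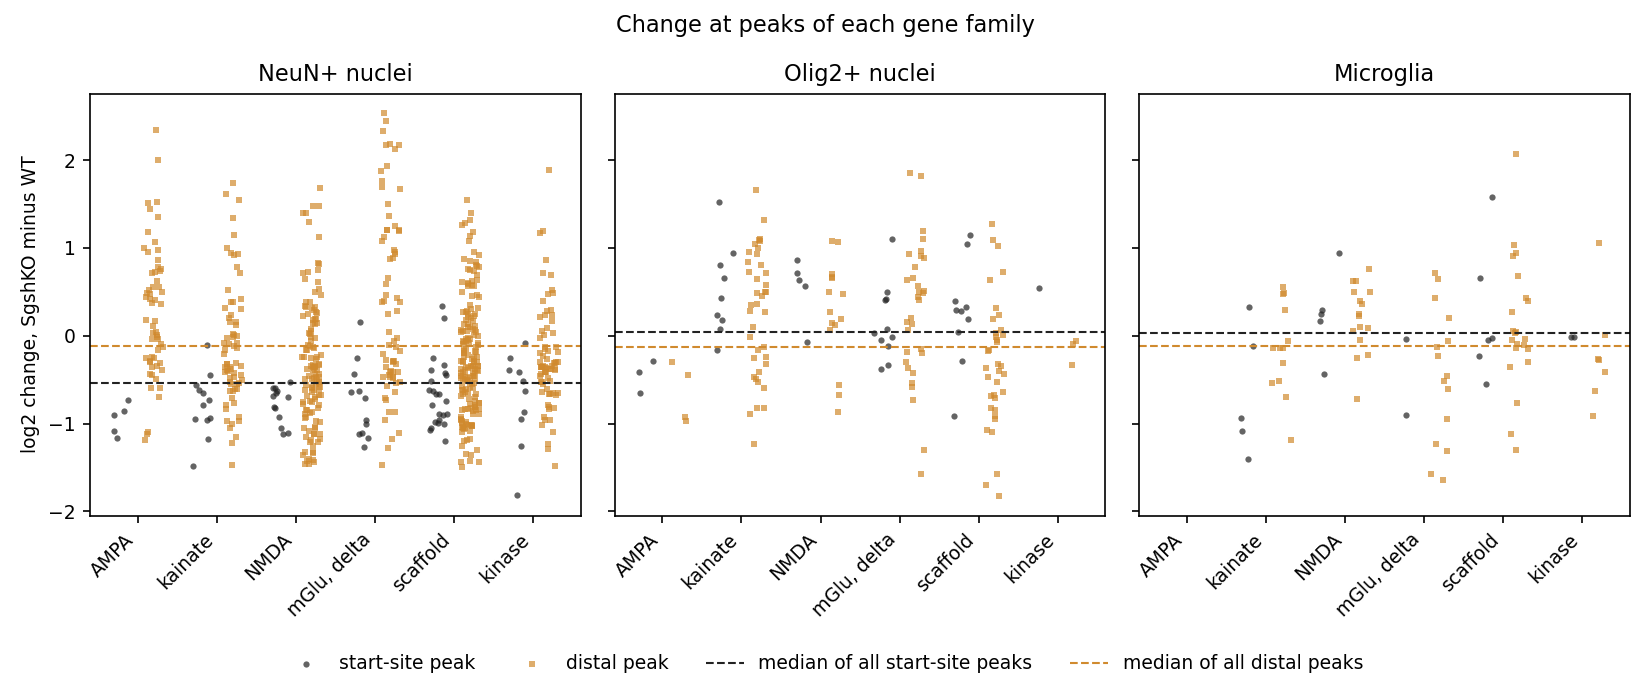
Log2 change (SgshKO minus WT) of each start-site peak (circles) and distal peak (squares) by gene family in the 3 populations, with dashed lines at the median of all start-site and all distal peaks. In NeuN+ nuclei 73 of 76 start-site peaks lie below 0, against 20123 of all 23397 start-site peaks. Distal peaks of the AMPA and of the metabotropic and delta genes reach above 2.

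AMPA genes had 12 distal peaks higher and 3 lower of 59 (20.3% and 5.08%). Metabotropic and delta genes had 24 and 7 of 70 (34.3% and 10%), against 12.6% and 12.6% of all distal peaks. Both families kept more higher than lower calls under each of the other scalings and edgeR. For AMPA these were 11 to 30 higher and 0 or 1 lower. The distal peaks of all the families together also had more higher than lower calls under these alternatives. Of the higher AMPA peaks, 6 assigned to Gria2 and 3 to Gria1 lay between protein-coding genes. The metabotropic and delta genes were split. Grm7, Grm3, Grm5 and Grm8 held 10, 8, 4 and 2 of the 24 higher peaks. Grm2, Grm4 and Grid1 had 0 higher, with 1 of 14, 3 of 7 and 1 of 8 lower. Scaffold genes had 14 higher and 39 lower of 178 (7.87% and 21.9%), and NMDA genes 10 and 25 of 127 (7.87% and 19.7%). Kinase genes had 3 and 11 of 74 (4.05% and 14.9%). Kainate genes had 10 and 7 of 69 (14.5% and 10.1%), near the shares of all distal peaks. For scaffold and NMDA genes the balance flipped on in-peak scaling, to 26 higher and 14 lower for scaffold and 16 and 10 for NMDA, so the direction of each of these families depended on the scaling. Kinase genes flipped too, to 7 and 5.

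Among single genes, Grm7 had 10 of 20 distal peaks higher and 0 lower, and 10 to 17 higher and 0 lower under the other scalings and edgeR. Grm3 had 8 of 10 higher and 1 lower, with 7 to 9 higher and 0 lower under those alternatives. Grm5 and Grik2 each had 4 higher and 0 lower, of 7 and 8 peaks, with 3 or 4 and 2 to 5 higher under those alternatives. The 4 higher peaks of Grm5 lay inside the gene. Those of Grik2 lay between protein-coding genes, while the 4 peaks inside Grik2 had 0 higher. Dlg2 had 8 higher and 2 lower of 46, with 0 lower under each other scaling. At Grm7 the nearest start-site peak was lower under each of these scalings too, while those of Grm5 and Grik2 lost their call with in-peak and with quantile scaling, and that of Grik2 also with median-of-ratios scaling. On the other side Shank1 had 11 of 28 lower and 1 higher, Dlg4 6 of 15 lower and 0 higher, Shank3 4 of 16 lower and 0 higher and Camk2a 8 of 36 lower and 0 higher. Shank1 and Dlg4 kept more lower than higher calls under the other scalings and edgeR, with 2 to 9 and 1 to 4 lower, while Shank3 had 0 to 3 lower and 0 higher and Camk2a 3 to 5 lower and 0 to 2 higher. Grin2a (4 higher, 12 lower of 67), Shank2 (3 and 9 of 44) and Homer1 (1 and 5 of 15) did not keep theirs.

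The 73 higher distal peaks started low: their median WT mean was 4.81 normalized tags and their median SgshKO mean 15.2. The 92 lower ones went from 14.3 to 6.70. Over all distal peaks the higher ones went from 5.66 to 14.8 and the lower ones from 17.0 to 7.87, a like contrast. Distal peaks were named among those whose mean over all 4 libraries reached the table median of 12.085 tags, which a peak low in WT can pass through its SgshKO level, so the sizes of such increases are descriptions. The largest increase named for the AMPA genes was 256384 bp downstream of the Gria2 TSS, outside genes (chr3:80546284-80546619), with 3.97 and 4.52 tags in WT and 26.5 and 24.8 in SgshKO (2.35, adjusted p = 2.14e-05). For the metabotropic genes it lay at -904601 bp from the Grm7 TSS (chr6:109740732-109741091), with 5.66 and 2.82 against 22.3 and 20.9 (2.17, adjusted p = 0.00014). Both peaks were under that level in each WT library and above it in each SgshKO library. A gene is assigned by the nearest TSS, so a link of such far peaks to Gria2 or Grm7 rests on distance alone.

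Within genes, a Dlg2 intron peak (chr7:91369805-91370060) rose from 10.8 and 10.7 tags to 30.0 and 36.8 (1.54, adjusted p = 0.000178). Its WT libraries were under the naming level of 12.085 tags and its SgshKO libraries above it. The size of this increase is thus a description as well. An intron peak 1467 bp into Dlg4 (chr11:70019904-70020240) fell from 59.5 and 46.3 to 16.1 and 20.3 (-1.49, adjusted p = 7.27e-05), the largest decrease named for the scaffold genes. A Camk2a intron peak 4361 bp from the TSS fell from 19.8 and 20.9 to 7.68 and 5.71 (-1.48), and a peak at -2186 bp of Grin2a from 45.3 and 41.8 to 23.7 and 17.8 (-1.05). At Grin2a another peak, at -71042 bp, rose from 36.3 and 32.8 to 70.5 and 54.6 (0.83, adjusted p = 0.00233), so distal peaks of 1 gene went both ways. Peaks assigned to Grik4 at -43794 bp (11.3 and 17.5 against 37.7 and 27.9) and -20207 bp (30.6 and 29.9 against 12.6 and 17.8) lie inside the gene Arhgef12. Grm4, which had no start-site peak, had its largest decrease at -8533 bp (13.0 and 23.7 against 8.38 and 3.81, -1.47). This peak and the Camk2a peak at 4361 bp were above the naming level in each WT library and under it in each SgshKO library. The sizes of these decreases are descriptions too.

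**Figure D3:**
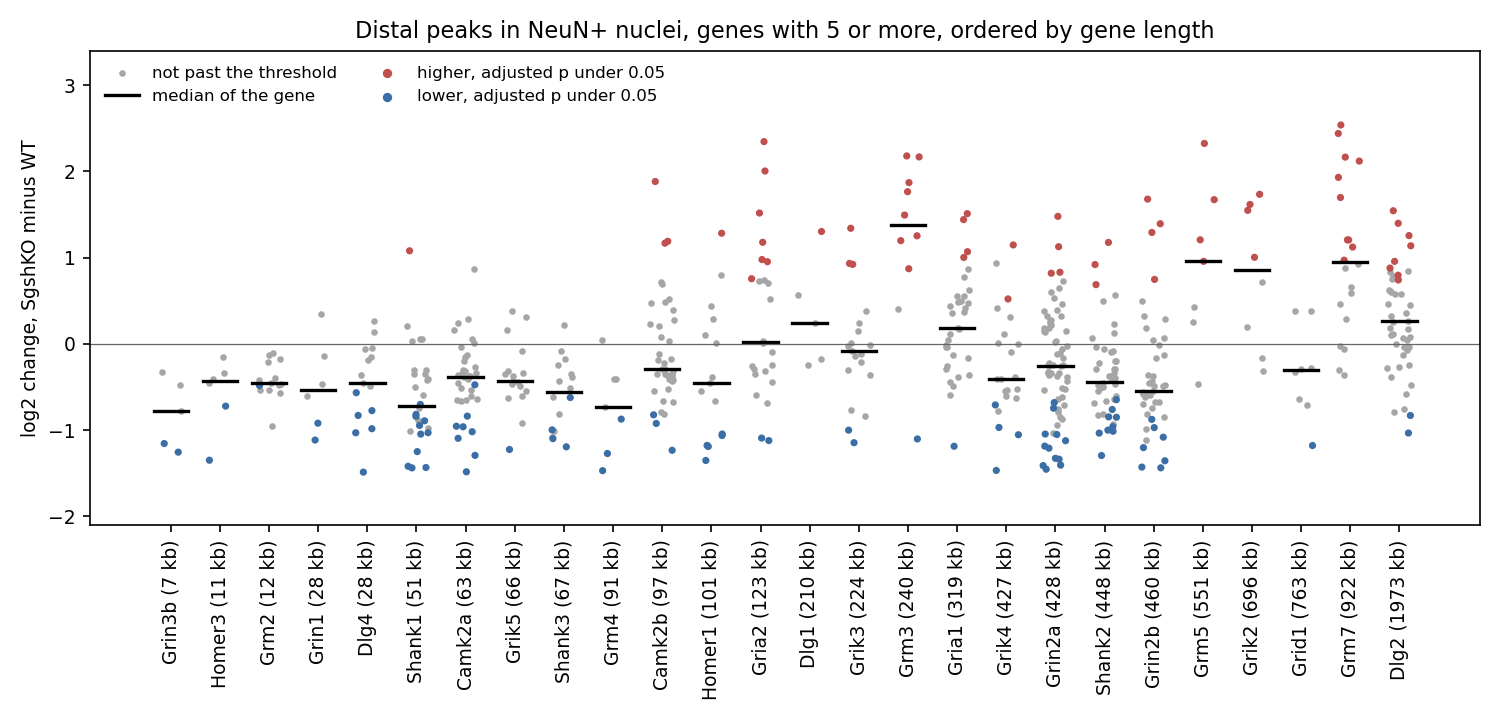
Log2 change (SgshKO minus WT) of each distal peak in NeuN+ nuclei for the 26 genes with 5 or more, ordered from the shortest to the longest gene, with called peaks coloured and a bar at the median of the gene. Medians of the 12 shortest genes lie below 0, while the longer genes lie on both sides, with Grm3, Grm5, Grik2, Grm7 and Dlg2 above 0 and Grik4, Grin2a, Shank2, Grin2b and Grid1 below it.

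Distal changes were also read by gene length and by place. Over the 26 genes with at least 5 distal peaks, Spearman's rho between gene length and median distal change was 0.65, and over 5522 genes of the same table it was 0.27, both given as descriptions since genes share libraries. The 16 genes longer than 200 kb had 59 higher and 40 lower of 339 distal peaks and the 17 shorter ones 14 and 52 of 238, or 17.4% higher and 11.8% lower against 5.88% and 21.8%. Over all genes the shares were 18.9% higher and 8.29% lower for those longer than 200 kb and 11.6% and 13.3% for the shorter ones. Of 121 distal peaks annotated as intergenic 34 were higher and 14 lower (28.1% and 11.6%), and of the 456 others 39 and 78 (8.55% and 17.1%). All distal peaks leaned the same way, with 18.6% higher and 10.2% lower when intergenic and 9.37% and 13.9% otherwise. Of 43 distal peaks that overlapped an Olig2+ peak 0 were higher and 11 (25.6%) lower by limma. Of the 534 others 73 (13.7%) were higher and 81 (15.2%) lower. Among all distal peaks, 2.51% of those that overlapped an Olig2+ peak and 15.4% of the others were higher, and 23.5% and 9.55% lower.

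In Olig2+ nuclei 8 of the 39 start-site peaks were higher (20.5%), 2 were lower (5.13%) and 29 did not pass the test, against 12.7% higher and 7.56% lower among all 20120. The median change was 0.28 against 0.05 for all start-site peaks. Each alternative scaling and edgeR also gave more higher than lower calls, from 8 and 3 to 14 and 1, and DESeq2 gave 2 and 1. Grin2a, Grin2b, Gria1 and Shank1 had no peak of either kind in these nuclei.

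The kainate genes held 3 of the higher peaks. Grik3 at -410 bp went from 4.15 and 5.11 tags to 17.2 and 13.3 (1.52, SE 0.33, adjusted p = 0.00171), Grik4 at -170 bp from 16.6 and 12.3 to 28.9 and 27.9 (0.94, adjusted p = 0.0078), and Grik5 at -829 bp from 32.2 and 41.4 to 60.9 and 55.2 (0.65, adjusted p = 0.0108). In each the groups did not overlap. Grid1 rose from 10.4 and 9.72 to 21.5 and 23.9 (1.10, adjusted p = 0.0048) and Dlg4 from 19.2 and 16.9 to 40.6 and 35.9 (1.04, adjusted p = 0.00121). Shank3 rose from 4.15 and 3.07 to 7.38 and 11.3 (1.15, adjusted p = 0.0298), Grin2d from 28.5 and 40.4 to 46.7 and 61.1 (0.64) and Homer3 from 173.2 and 198.9 to 238.6 and 228.0 (0.33, adjusted p = 0.0134). The peaks of Grik3 and Shank3 were low in WT. Grik3 held 8 and 10 reads in the WT libraries, and Shank3 had no more tags than Grik3 in either. DESeq2, which gave an adjusted p for 24 of the 39 peaks, called Dlg4 and Homer3 higher.

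Homer1 was the main exception. Its Olig2+ peak at -33 bp fell from 121.9 and 113.5 to 60.9 and 63.1 (118 ± 5.92 against 62.0 ± 1.61, SD, n = 2; -0.91, SE 0.13, adjusted p = 1.29e-05), while its neighbour at +260 bp held 185.7 and 185.6 in WT and 206.6 and 218.7 in SgshKO (0.19, adjusted p = 0.132). The fall at -33 bp passed the test under every alternative run. Each of the 4 distal Homer1 peaks in these nuclei was lower as well, with a median change of -1.64, and also 4 of 4 under each other scaling and edgeR. Gria4 at +587 bp fell from 34.2 and 31.2 to 19.1 and 21.9 (-0.65, adjusted p = 0.037), and Gria2 held 75.7 and 66.5 against 50.4 and 55.8 (-0.41, adjusted p = 0.0591), the only receptor family here with no positive start-site change.

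Distal peaks in Olig2+ nuclei were called more often than the background in the upward direction, with 27 of 129 higher (20.9%) and 18 lower (14.0%), against 6.7% higher and 13% lower among all 62457. Kainate genes had 11 higher and 2 lower of 39 and metabotropic and delta genes 9 and 4 of 32, while scaffold genes had 4 and 10 of 36. These 3 balances held under the other scalings and edgeR. Of the 9 higher metabotropic and delta peaks Grm7 held 7 and Grm3 held 2. Grm2, Grm4, Grm5, Grm8 and Grid1 had 0 higher, Grm4 had 2 of 2 lower, and Grm7 and Grid1 had 1 lower each. The 11 higher kainate peaks were 5 of Grik4, 4 of Grik2 and 2 of Grik1. A Grm7 intron peak 517489 bp into the gene (chr6:111162957-111163217) rose from 27.5 and 31.2 tags to 102.1 and 110.3 (1.82, SE 0.16, adjusted p = 1.93e-09). Between 490519 and 516233 bp into the gene 5 more Grm7 intron peaks were higher, singled out after their values were seen. A Grik2 intron peak (chr10:49646311-49646587) rose from 21.8 and 27.6 to 82.4 and 77.1 (1.66, SE 0.18, adjusted p = 9.47e-08). Both passed the test under every alternative run, and in neither did the groups overlap. A peak assigned to Grik4 at -66930 bp, inside Arhgef12, rose from 23.9 and 18.9 to 48.6 and 41.2 (1.04, adjusted p = 0.000778).

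Among distal peaks at or above the Olig2+ table median of 14.965 tags, which 3 of the 4 Homer1 peaks did not reach, the largest decreases named, 1 per gene, were in introns of Grm4 (22.8 and 23.01 against 6.76 and 7.31, -1.57, adjusted p = 0.000251), Dlg2 (24.9 and 20.97 against 15.4 and 6.65, -1.09) and Gria2 (34.8 and 32.7 against 13.5 and 20.6, -0.97). The Grm4 peak was above that level in each WT library and under it in each SgshKO library, so the size of its decrease is a description. Marker signal shifted in the same libraries. The oligodendrocyte markers summed to 3000 and 2948 start-site tags in WT and 2515 and 2479 in SgshKO, and the precursor markers to 277 and 270 against 321 and 314. Of the inhibitory neuron markers 2 of 5 had a start-site peak, with sums of 29.1 and 24.03 against 47.4 and 45.9, while the 5 excitatory neuron and 5 astrocyte markers had none. The SgshKO to WT ratio was 1.10 for the neuron markers (4 of 6 with a peak), 1.36 for the microglial ones (1 of 6) and 3.11 for the endothelial ones (1 of 5), with 1 peak higher in each. The part of these shifts in the result was not tested.

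The test of the difference itself was run on peaks matched between the NeuN+ and Olig2+ tables by at least 50% reciprocal overlap. Of 29 matched start-site peaks from 22 of the genes, 20 (69%) had a more negative change in NeuN+ than in Olig2+ nuclei at an adjusted p under 0.05 (limma interaction, adjusted over 29576 matched peaks), and 0 a more positive one, with 0 more positive at an unadjusted p under 0.05 too. Among all matched start-site peaks 49.3% were more negative and 1.73% more positive in NeuN+ nuclei. The median difference was -1.20 for the 29 peaks and -0.62 for all. Of 36 matched distal peaks 8 (22.2%) were more negative, against 15% of all, and 1 (2.78%) more positive, against 4.77%.

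**Figure D4:**
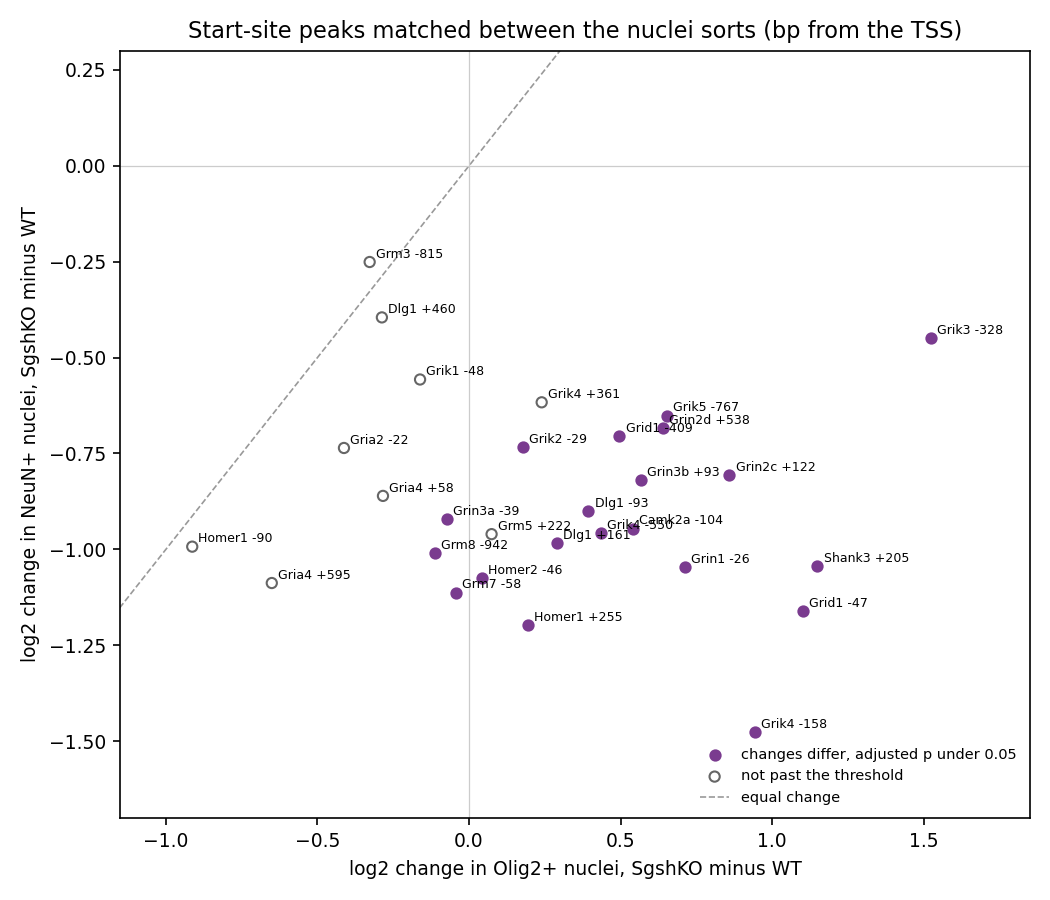
Log2 change (SgshKO minus WT) in Olig2+ nuclei on the x axis and in NeuN+ nuclei on the y axis for 29 matched start-site peaks, labelled by gene and position in bp from the TSS, with filled points where the changes differ. Of the 29 points 28 lie below the dashed line of equal change, Homer1 at -90 bp and 1 Dlg1 peak only just, and Grm3 lies above it.

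The smallest p-values were at Homer1 +255 bp, Grid1 -47 bp and Grik4 -158 bp. Homer1 +255 bp changed by -1.20 in NeuN+ and 0.19 in Olig2+ nuclei, a difference of -1.39 (SE 0.16). Grid1 changed by -1.16 and 1.10, a difference of -2.26 (SE 0.33), and Grik4 by -1.48 and 0.94, a difference of -2.42 (SE 0.39). At Grid1 and Grik4 both SgshKO libraries were below both WT libraries in NeuN+ nuclei and above them in Olig2+ nuclei. The Homer1 peak at -90 bp fell in both sorts, by 0.99 and 0.91 on the log2 scale, and its difference did not pass the test. Under median-of-ratios or quantile scaling 19 of the 65 matched peaks were called in place of 29.

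Microglia had few peaks at these genes, and 12 of the 33 had none, among them Gria1, Gria2, Gria4 and Grin2b. Of 20 start-site peaks 1 was higher and 1 lower (5% each), against 8.59% higher and 1.2% lower among all 23806. Homer3, a scaffold gene with start-site peaks in each population, had its peak at -122 bp (chr8:70282739-70283015), which covered the 250 bases printed above with their 4 GC boxes. It held 214.3 and 164.3 tags in WT and 641.5 and 493.0 in SgshKO, or 189 ± 35.3 against 567 ± 105 (SD, n = 2). The change was 1.58 on the log2 scale (SE 0.26, adjusted p = 0.000111). Each SgshKO library was above each WT library, and the call was lost without WT replicate 2. Grik4 at -597 bp fell from 112.3 and 102.5 to 61.5 and 40.8 (-1.08, adjusted p = 0.0345), a call lost without either WT library, and Homer1 at +145 bp held 197.9 and 160.1 against 279.6 and 284.1 (0.66, adjusted p = 0.133).

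**Figure D5:**
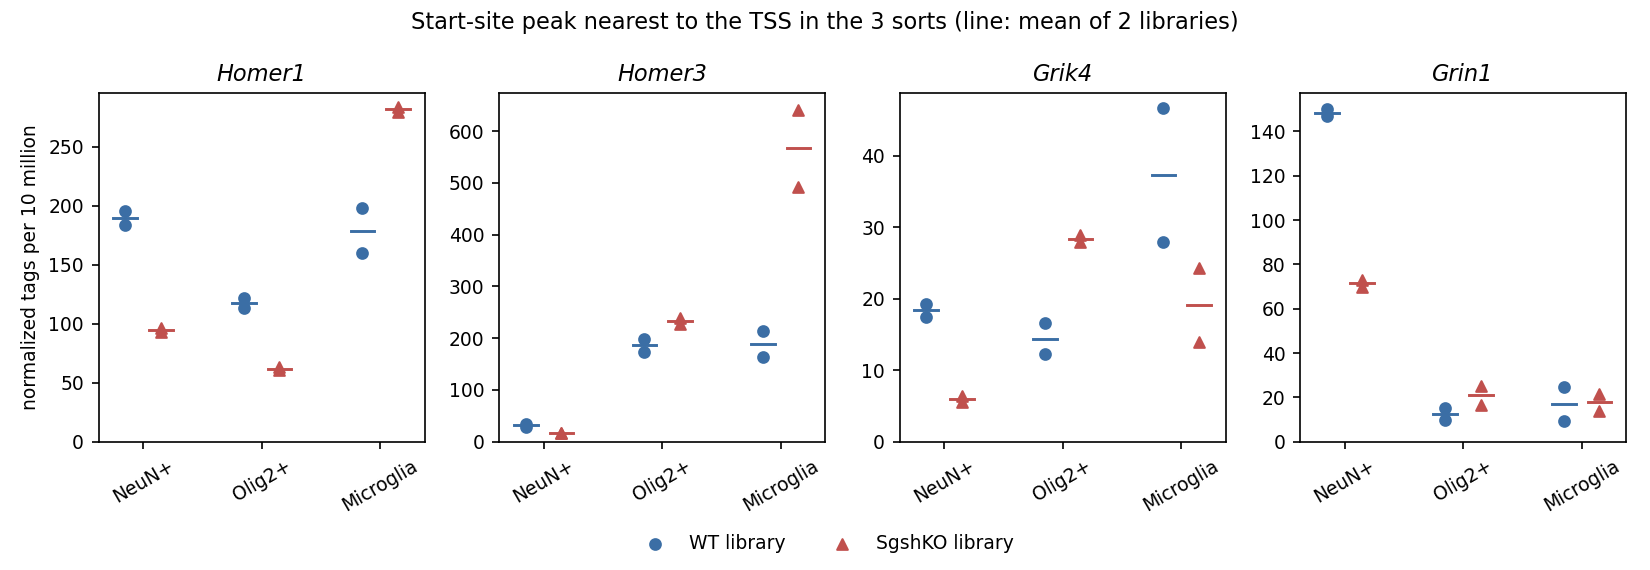
Normalized tags (tags per 10000000) in the start-site peak nearest to the TSS of Homer1, Homer3, Grik4 and Grin1 in each WT library (circles) and SgshKO library (triangles) of the 3 populations, with a line at the mean of 2 libraries. Homer3 runs from 16.5 to 34.0 in NeuN+ nuclei and rises to 641.5 in microglia of SgshKO, and Grik4 falls in NeuN+ and rises in Olig2+ nuclei.

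Of 73 distal peaks in microglia 2 were higher and 2 lower (2.74% each), against 3.8% higher and 2.72% lower among all 67964. An intron peak 2967 bp into Dlg4 (chr11:70021378-70021767) rose from 48.4 and 66.9 tags to 157.6 and 372.3 (2.07, SE 0.33, adjusted p = 6.26e-05). The SgshKO libraries differed from each other by more than the WT libraries did, yet both were above WT, and DESeq2 did not call the peak. In NeuN+ nuclei the peak at 2984 bp was lower (143.3 and 141.2 against 85.2 and 74.3, a log2 change of -0.83). A peak at -9825 bp of Homer3 rose from 59.6 and 56.8 to 135.9 and 105.8 (1.03, adjusted p = 0.0369) and lost its call without either WT library. Peaks at -625148 bp of Grm7 (23.3 and 20.3 against 10.4 and 3.71) and at -17234 bp of Grm4 (18.1 and 14.4 against 6.06 and 3.71) were lower. Both calls were lost with DESeq2 and without either WT library, that of Grm7 also without SgshKO replicate 2. In-peak shares of 55.8% and 48.7% in WT and 67.4% and 53.7% in SgshKO differ more between these 4 libraries than in the nuclei, and the counts without 1 library ran from 0 to 5 for start-site and from 1 to 14 for distal peaks. The start-site signal of the microglial markers had an SgshKO to WT ratio of 1.07. It was 0.463 for the precursor and 0.678 for the inhibitory neuron markers, and 0.781 to 1.38 for the other cell types. The microglial and precursor markers had 1 peak lower each. What these marker shifts add to the result was not tested.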

How the data were processed

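ATAC-seq signal was deposited by the authors as 1 peak table per population, each with 2 WT and 2 SgshKO libraries. Per the file headers, the authors scaled this signal, the tags counted in each peak, to a library total of 10000000. The submitters' processing notes name Bowtie2, HOMER and mm10, without versions. The authors' file naming calls the peaks merged IDR peaks; read shifting, duplicate handling and the settings of peak calling were not stated in the labels or headers. Dividing out the header totals gave whole reads, with 100% of values within 0.01 of a whole number.

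Each table was fitted alone with limma 3.58.1 (R 4.3.3) on log2(tags + 1), with a trended prior, SgshKO minus WT, 2-sided, and p-values adjusted over the whole table by Benjamini-Hochberg. A peak was called at an adjusted p under 0.05. A log2 change on log2(tags + 1) understates changes of low peaks. NeuN+ and Olig2+ peaks were matched with at least 50% reciprocal overlap and tested for a genotype by sort interaction. Alternatives were pseudocounts of 0.5 and 5, no lowest 25% of peaks, 3 other scalings, edgeR 4.0.16 and DESeq2 1.42.0 on whole reads, a replicate block, 1 library left out, a window of 500 bp, an adjusted p of 0.01 and 80% overlap, and, chosen after seeing the data, start-site peaks centred at no change.

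Genes were assigned by the nearest TSS in the deposited tables. Named were each gene's start-site peak nearest to the TSS, in NeuN+ nuclei the largest called distal increase and decrease of each family, in the other populations the 3 largest of each direction, among peaks at or above the table median in level whose groups did not overlap, and the 3 smallest interaction p-values. Other peaks named were chosen after their values were seen. The genes, lists and tests were chosen with earlier results of these data known. Markers of other cell types, a list of 39 postsynaptic partner genes and a list of 13 genes for glutamate transport and metabolism were read in the same way.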

Additional observations from a re-analysis of the deposited data

Results flagged for a closer look

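The change between genotypes differed between NeuN+ and Olig2+ nuclei at 29 of 65 matched peaks, each past an adjusted p of 0.05 in the limma interaction test. The value given is the log2 change in NeuN+ nuclei minus that in Olig2+ nuclei, with the peak's distance from the TSS. Such differences were common in these tables: 49.3% of all matched start-site peaks and 15% of all matched distal peaks had a more negative change in NeuN+ nuclei. At 20 of the 29 matched start-site peaks of these genes the NeuN+ change was the more negative. Among kainate receptor genes these were Grik4 at -158 bp (-2.42), Grik5 at -767 bp (-1.30), Grik4 at -550 bp (-1.39), Grik3 at -328 bp (-1.97) and Grik2 at -29 bp (-0.91). For NMDA receptor genes they were Grin1 at -26 bp (-1.76), Grin2d at 538 bp (-1.32), Grin2c at 122 bp (-1.67), Grin3a at -39 bp (-0.85) and Grin3b at 93 bp (-1.39). Metabotropic and delta receptor genes entered with Grid1 at -47 bp (-2.26), Grm7 at -58 bp (-1.07), Grid1 at -409 bp (-1.20) and Grm8 at -942 bp (-0.90). The scaffold genes entered with Homer1 at 255 bp (-1.39), Shank3 at 205 bp (-2.19), Dlg1 at -93 bp (-1.29), Dlg1 at 161 bp (-1.27) and Homer2 at -46 bp (-1.12). CaMKII genes entered with Camk2a at -104 bp (-1.49). This peak (chr18:60963323-60963577) is near another start of Camk2a than the -58 bp peak described above (chr18:60925470-60925678). It had a mean of 13.0 tags in NeuN+ WT, against 106.6 at the -58 bp peak. At distal peaks the values were Dlg4 at 11061 bp (-1.41), Dlg4 at 2984 bp (-0.67), Grik4 at 46611 bp (-1.40), Grin3b at 6042 bp (-2.23), Dlg4 at 8177 bp (-1.22), Grik4 at -66887 bp (-1.13), Grik4 at 45946 bp (-1.11) and Grik4 at 1165 bp (-1.06), and with the opposite sign Homer1 at 91823 bp (2.14).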

How the results depend on the processing

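Over 70 named peaks and their alternatives, 768 of 969 values stayed on the same side of the threshold in the same direction, 180 lost the call, 8 gained one and 13 turned sign. The 45 NeuN+ start-site calls became 23 with in-peak scaling, 29 with median-of-ratios scaling, 20 with quantile normalization, 6 with DESeq2, 13 with start-site peaks centred, 29 at an adjusted p of 0.01, and 0 to 26 with 1 library left out. The 165 NeuN+ distal calls became 98 with quantile normalization, 28 with DESeq2, 73 at 0.01, and 0 to 64 with 1 library left out; without either SgshKO library limma called no peak of that table. In Olig2+ nuclei the 10 start-site calls became 3 with DESeq2, 5 at 0.01 and 5 to 14 with 1 library left out, and the 45 distal calls 8, 23 and 21 to 41. In microglia the 2 start-site calls became 5 with in-peak scaling, 1 with the 500 bp window, 1 at 0.01 and 0 to 5 with 1 library left out. The 4 microglial distal calls became 2 without the lowest 25% of peaks, 10 in-peak, 7 median-of-ratios, 7 quantile, 9 edgeR, 1 DESeq2, 8 centred, 1 at 0.01 and 1 to 14 with 1 library left out. The 29 differences between nuclei became 19 with median-of-ratios scaling, 19 with quantile normalization, 17 at 80% overlap, where 37 of 65 pairs remained, and 23 to 28 with 1 library left out. With 1 library left out, the lone library of that group is assumed to vary like the other group. Apart from the smaller set at 80% overlap, the cause was not tested. Depth was low, with a median of 17 to 39 reads per peak.

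The sign turned in NeuN+ nuclei for Grik3 at -328 bp (0.070 centred), for Grik5 at 404 bp (0.18 in-peak, 0.10 median-of-ratios, 0.046 quantile, 0.070 edgeR, 0.070 DESeq2, 0.41 centred, and from -0.42 to 0.21 with 1 library left out), for Grm3 at -815 bp (0.042 in-peak, 0.11 quantile, 0.27 centred) and for Camk2b at 40 bp (0.038 quantile, 0.0059 centred).

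Replicate numbers are shared between genotypes, but deviations of same-numbered libraries correlated at 0.0036 in NeuN+, 0.0023 in Olig2+ and 0.055 in microglial tables, so the numbers were not taken as pairs. With the replicate number as a block the calls were 48 and 183 (start-site and distal) in NeuN+ nuclei, 10 and 50 in Olig2+ nuclei, 4 and 8 in microglia, and 29 between nuclei.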

Other observations

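Promoter GC content went with the start-site change over all promoters with a peak in both nuclei sorts. Spearman's rho was -0.43 over 10504 promoters in NeuN+ nuclei and 0.41 over 9530 promoters in Olig2+ nuclei, given as descriptions. Over the promoters of receptor and scaffold genes it was 0.10 (20 promoters) in NeuN+ and 0.59 (16 promoters) in Olig2+ nuclei.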
